A study of Mus musculus with 15 samples.

Results

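Meis2 and Tead1 are 2 of the 7949 genes that held a binding site of the RNA-binding protein SAM68 on at least 1 of 3 days of embryonic stem cell differentiation. Both genes were selected on their site numbers, which were lower on day 3 than on day 0 and day 10, so these numbers are given as a description and nothing is inferred from the dip itself. The members of each gene are the entries of the 3 lists assigned to its Ensembl ID: 223 sites in Meis2 and 280 in Tead1. The positions of the sites were not used in that choice, and the question asked of them was whether day 10 sites fell on the places bound on day 0.

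SAM68 was mapped by iCLIP2, in which ultraviolet light (254 nm, 150 mJ/cm2) crosslinks SAM68 to the transcripts it touches, the complexes are pulled down with an antibody and the stop of reverse transcription marks the crosslinked nucleotide. The cells were E14 mouse embryonic stem cells, a single line kept in serum with LIF and inhibitors of GSK and MEK. Day 0 cells were undifferentiated, day 3 cells came from embryoid bodies grown in hanging drops, and day 10 cells came from embryoid bodies grown in spheroid plates, so day and culture format cannot be told apart. Embryoid bodies were taken apart into single cells before crosslinking. No group carried a genetic change or a drug treatment beyond the culture medium, and each day had 5 libraries.

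The 5 libraries of a day were represented by 1 list of sites, each 5 nt wide, with 29740 sites on day 0, 28266 on day 3 and 74287 on day 10. The lists give no crosslink counts and no value per library. The depth and the spread between replicates are therefore unknown, and the days could not be compared by a test. Intervals are exact 95% intervals that cover counting error only, and neighbouring sites of a gene are not independent. As a check of the labels, 7 of 8 stem cell marker transcripts held 153 sites in the day 0 list, 10 in the day 3 list and 1 in the day 10 list, and 3 of 3 markers of primed cells held 0, 45 and 0. Sites in 6 of 10 mesoderm and heart markers numbered 0, 4 and 233, in 4 of 6 endoderm markers 0, 5 and 202, in 3 of 5 neural markers 0, 0 and 255 and in 3 of 4 endothelial markers 6, 0 and 30. The neural sites were those of Robo2 (149), Cdh2 (69) and Zeb2 (37), and Pax6 and Sox1 held none. The endothelial sites of day 10 lay in Flt1 (29) and Cdh5 (1), whereas Pecam1 held 6, 0 and 0 and Kdr none. Sox17 and Foxa2 of the endoderm list held none. In the mesoderm and heart list, Gata4 held 111 of the 233 day 10 sites, Myh6 held 6 and Tnnt2 held 3. T, Eomes, Mesp1 and Nkx2-5 of that list held none. Day 10 thus gave sites in some markers of these lists and not in others, which does not establish each lineage. The part of a mixture of cell types in the results below was not tested. In such bulk samples fewer cells of a type and less RNA per cell cannot be told apart. The lists also give no RNA level, so a change in binding per transcript cannot be told apart from a change in transcript level.

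MEIS2 is a homeodomain transcription factor of the TALE class, which binds DNA together with PBX proteins and takes part in the development of the heart, limbs, brain and neural crest. TEAD1 is a TEA domain transcription factor at the end of the Hippo pathway, where kinases of the LATS and MST families restrain the coactivators YAP and TAZ that TEAD proteins need to activate genes for growth, and it is required for the embryonic heart. SAM68 is a STAR family protein that binds A- and U-rich RNA and regulates splicing and the processing of transcripts, often from within introns.

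One site could be read as sequence, because a day 10 site of Meis2 lies in the only promoter window that RefSeq gives for the gene (GRCm38.p6). It is shown as an example of the letters under a called site, with the 5 nt of the site in capitals, at chr2:116064784-116064808 on the minus strand.
Meis2, day 10: gcaaagggtaGGTTTaaatctccaa
The site lay 177 nt upstream of that annotated start and 2.74 kb inside the gene span, whose outermost start lies farther upstream. The nearest day 0 site was 7113 nt away. UAAA and UUAA, letters of the kind SAM68 prefers, were searched on the RNA strand within 15 nt of the site's centre. Both were found, overlapping each other and starting 2 and 1 nt downstream of the centre. At the same place of all 32851 promoter windows, UAAA stood in 11.4% and UUAA in 10.1%. A single site is a description of that site, and no other sequence of a member site was used here.

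Meis2 spans 206 kb on the minus strand of chromosome 2 (chr2:115861264-116067537, GRCm38.p6). Its sites numbered 36 on day 0, 1 on day 3 and 186 on day 10. Scaled to list length this was 12.1 sites per 10000 on day 0 (8.48 to 16.8), 0.354 on day 3 (0.00896 to 1.97) and 25.04 on day 10 (21.6 to 28.9). By site number Meis2 ranked 103 among 5056 bound genes on day 0 and 24 among 6345 on day 10. All 223 sites lay inside the RefSeq span. No site of another gene was listed within it, but the lists leave out sites of overlapping genes.

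Tead1 spans 227 kb on the plus strand of chromosome 7 (chr7:112679356-112906784) and held 69, 21 and 190 sites. This was 23.2 per 10000 on day 0 (18.1 to 29.4), 7.43 on day 3 (4.6 to 11.4) and 25.6 on day 10 (22.1 to 29.5). Tead1 ranked 24, 239 and 22 by site number on the 3 days. The day 3 share was 0.320 times that of day 0 in Tead1 and 0.0292 times in Meis2, values that belong to the choice of these genes. The neighbouring gene Parva, which encodes an actin-binding protein of cell adhesions and lies upstream of Tead1, held 0, 0 and 67 sites.

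**Figure D1:**
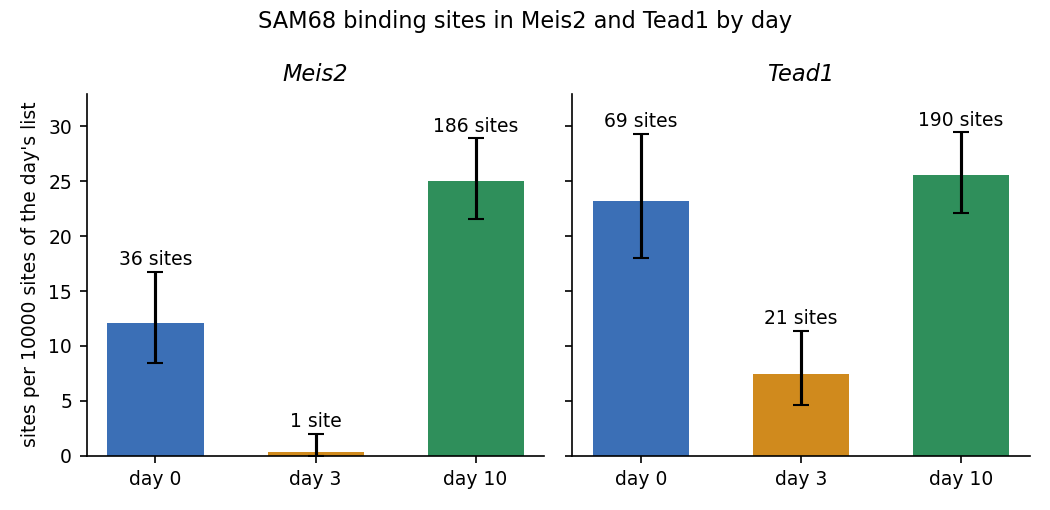
Sites per 10000 sites of the day's list (y axis) in Meis2 and Tead1 on day 0, day 3 and day 10 (x axis); bars are the values, whiskers the exact 95% intervals for counting error, and the number of sites stands above each bar. Meis2 had 1 site on day 3 and Tead1 21, and on day 10 they had 186 and 190.

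A smaller share on day 3 than on day 0 followed by a larger share on day 10 than on day 3, with both intervals beyond 1, was met by 41 of 1692 genes (2.42%), those whose sites in the 3 lists numbered 20 or more. Meis2 and Tead1 are 2 of these 41, as their selection requires. The median gene of the 41 held 15 sites in the day 0 list, 1 in the day 3 list and 46 in the day 10 list, and 16 of the 41 held no day 3 site at all. On day 10, no gene of the 41 held more sites than Tead1. On day 0, 1 gene held more.

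**Figure D2:**
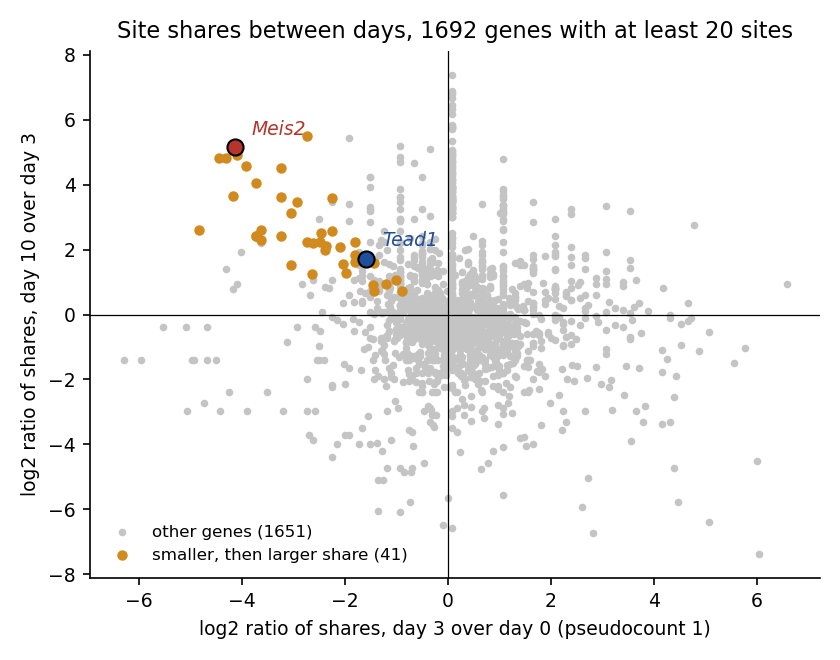
Log2 ratio of site shares with a pseudocount of 1, day 3 over day 0 (x axis) against day 10 over day 3 (y axis), for 1692 genes with at least 20 sites; each point is a gene and the 41 genes with a smaller and then a larger share are orange. Both axes share the day 3 list, which tilts the cloud, and Meis2 lies farther out than Tead1.

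Day 10 sites fell on day 0 sites in both genes, but most day 10 sites did not. In Meis2, 13 of 36 day 0 sites shared at least 1 nt with a day 10 site on the same strand, which is 36.1% (20.8 to 53.8). The same 13 positions made up 6.99% of the 186 day 10 sites (3.77 to 11.7). In Tead1, 30 of 69 day 0 sites, 43.5% (31.6 to 56.0), lay on a day 10 site, and 15.8% of the 190 day 10 sites (10.9 to 21.8) lay on a day 0 site. The remaining 173 day 10 sites of Meis2 and 160 of Tead1 lay on places that were not listed on day 0.

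Over the sites of all genes, 24.1% of day 0 sites lay on a day 10 site and 9.68% of day 10 sites lay on a day 0 site. Read gene by gene, among the 190 genes with at least 20 sites on both days, the median share of day 0 sites on a day 10 site was 31.1%, with quartiles of 21.5% and 41.1%. Meis2 lay within the quartiles, with 65 genes above it, and Tead1 just beyond the upper quartile, with 34 genes above it. In the opposite direction the median share was 17.3%. Tead1 lay near it, with 109 genes above, and Meis2 lay low, with 178 genes above and 11 below. Meis2 listed 5.17 day 10 sites for each day 0 site and Tead1 2.75, against a median of 1.73 over the 190 genes, and only 7 genes had a higher number than Meis2. With 36 day 0 sites and 186 day 10 sites, at most 19.4% of Meis2's day 10 sites could be paired one to one with a day 0 site. For Tead1 that limit was 36.3%. Of the 41 dip genes, 16 were among the 190, and their medians were 37.2% of day 0 sites and 15.3% of day 10 sites.

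**Figure D3:**
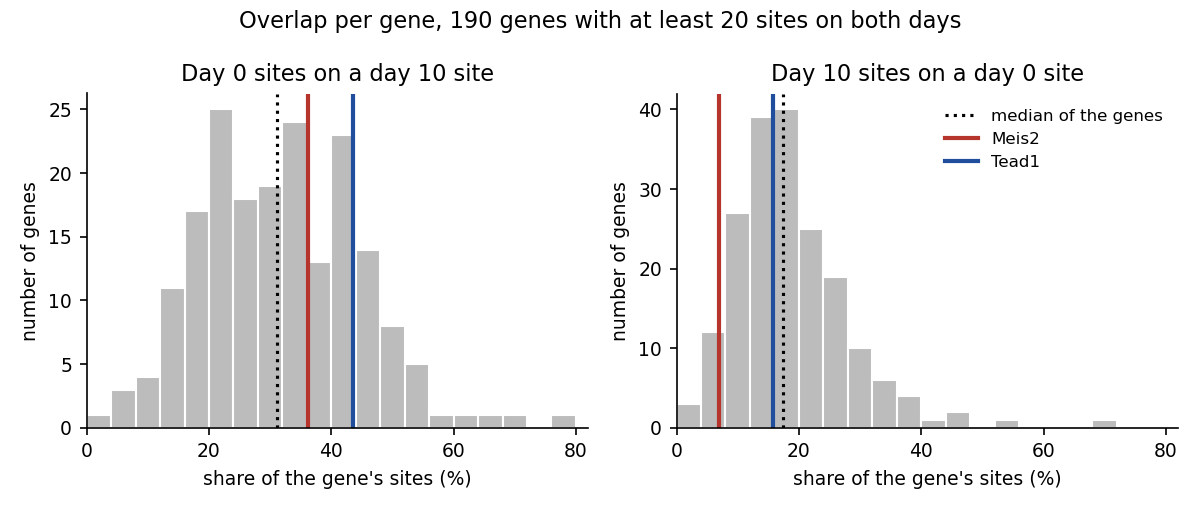
Number of genes (y axis) by the share of a gene's day 0 sites that lie on a day 10 site (left, x axis in percent) and of its day 10 sites that lie on a day 0 site (right), for 190 genes with at least 20 sites on both days; coloured lines mark Meis2 and Tead1 and the dotted line the median. Meis2 stands at 36.1% and 6.99%, Tead1 at 43.5% and 15.8%.

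Touching sites are at most 4 nt apart by definition. Of the 13 touching pairs in Meis2, 4 had the same position (30.8%), and in Tead1 10 of 30 did (33.3%). Over all genes 44.4% of the day 0 sites that touched a day 10 site had the same position. Shifts went both ways along the transcript: the day 10 site lay upstream in 4 and downstream in 5 pairs of Meis2, and upstream in 12 and downstream in 8 pairs of Tead1. These pairs are too few to tell whether a common direction exists. Pairs crowded at these short distances: Meis2 had 13 pairs of a day 0 and a day 10 site over the 9 offsets from touching to identical, and 59 over the 900 offsets between 51 and 500 nt on either side. Tead1 had 30 and 103.

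Distances cover the sites without a counterpart as well. Taken over all day 0 sites, the median distance from a site to the nearest day 10 site was 105 nt in Meis2 and 32 nt in Tead1, against 415 nt over all genes, and 32 of 36 and 57 of 69 day 0 sites had a day 10 site within 500 nt. Among the day 0 sites that touched no day 10 site, the median distance was 191 nt over 23 sites in Meis2 and 304 nt over 39 sites in Tead1, against 1205 nt over all genes, and 19 of 23 and 27 of 39 had a day 10 site within 500 nt. No Meis2 site and 1 Tead1 site of day 0 lay more than 5000 nt away. Seen from day 10 the genes differed more in value. The median day 10 site of Meis2 lay 1531 nt from a day 0 site and 48 of 186 lay beyond 5000 nt, whereas the median was 442 nt in Tead1, with 12 of 190 beyond 5000 nt. Over all genes the median was 3668 nt. The density of sites along a gene enters these distances: both genes held over 80 day 10 sites per 100 kb (90.2 in Meis2 and 83.5 in Tead1), but 17.5 and 30.3 on day 0. The values over all genes include genes with few or no day 10 sites, and no set of genes matched for site number was compared. The shorter distances are therefore a description and not a trait shown for these genes.

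**Figure D4:**
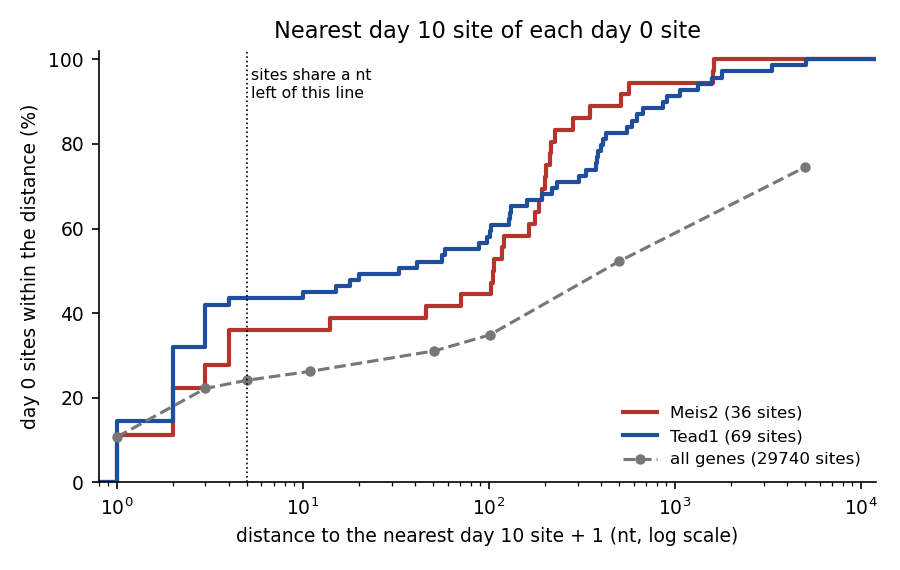
Cumulative share of day 0 sites (y axis, percent) within a given distance of a day 10 site (x axis, distance + 1 in nt, log scale), for Meis2 (36 sites), Tead1 (69 sites) and all genes (29740 sites, grey points at fixed distances). At the dotted line, where sites still share a nt, the curves stand at 36.1%, 43.5% and 24.1%.

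Some day 10 sites of Meis2 lay in regions that were empty on day 0, though day 10 sites were sparse there as well. The longest stretch without a day 0 site, picked for being empty, ran from 34.2 to 71.0 kb from the 5′ end. It made up 17.8% of the span and held 20 of the 186 day 10 sites. The span was also cut into 10 sections of equal length, numbered from the 5′ end. Sections 3 and 7 held no day 0 site but 13 and 14 day 10 sites, 6.99% and 7.53% of that day's sites. Section 8 held 10 of the 36 day 0 sites and 25 of the 186 day 10 sites. The most crowded 5 kb of day 10, which ran from chr2:115986784 to chr2:115991724, held 18 sites of that day, 4 of day 0 and the single site of day 3. In all, 52.8% of day 0 sites (35.5 to 69.6) and 52.7% of day 10 sites (45.3 to 60.04) lay in the second part of the gene when it is cut at its middle.

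In Tead1, section 8 of 10 held 19 of 69 sites on day 0, 5 of 21 on day 3 and 32 of 190 on day 10. Section 5 held the most on day 10, with 37, but 9 on day 0 and 3 on day 3, when section 10 held 10 and 4. The most crowded 5 kb of day 10, from chr7:112840730 to chr7:112845547, held 18 sites of day 10, 9 of day 0 and 5 of day 3. The longest stretch without a day 0 site ran from 26.4 to 59.0 kb and made up 14.3% of the span. It held 3 of the 21 day 3 sites and 11 of the 190 day 10 sites, so day 10 sites were sparse there as well. Beyond the middle of the gene lay 56.5% of day 0 sites (44.0 to 68.4), 47.6% of day 3 sites (25.7 to 70.2) and 49.5% of day 10 sites (42.2 to 56.8), so these shares overlap within counting error.

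Places bound on both day 0 and day 10 tended to the later part of both genes by their values, without a difference beyond counting error being shown. In Tead1, 20 of 30 day 0 sites with a day 10 counterpart lay beyond the middle, against 19 of 39 without one. In Meis2 these numbers were 8 of 13 and 11 of 23. The shared places of Meis2 all lay between 71.0 and 190 kb from the 5′ end, and those of Tead1 ran from 5.69 to 227 kb.

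**Figure D5:**
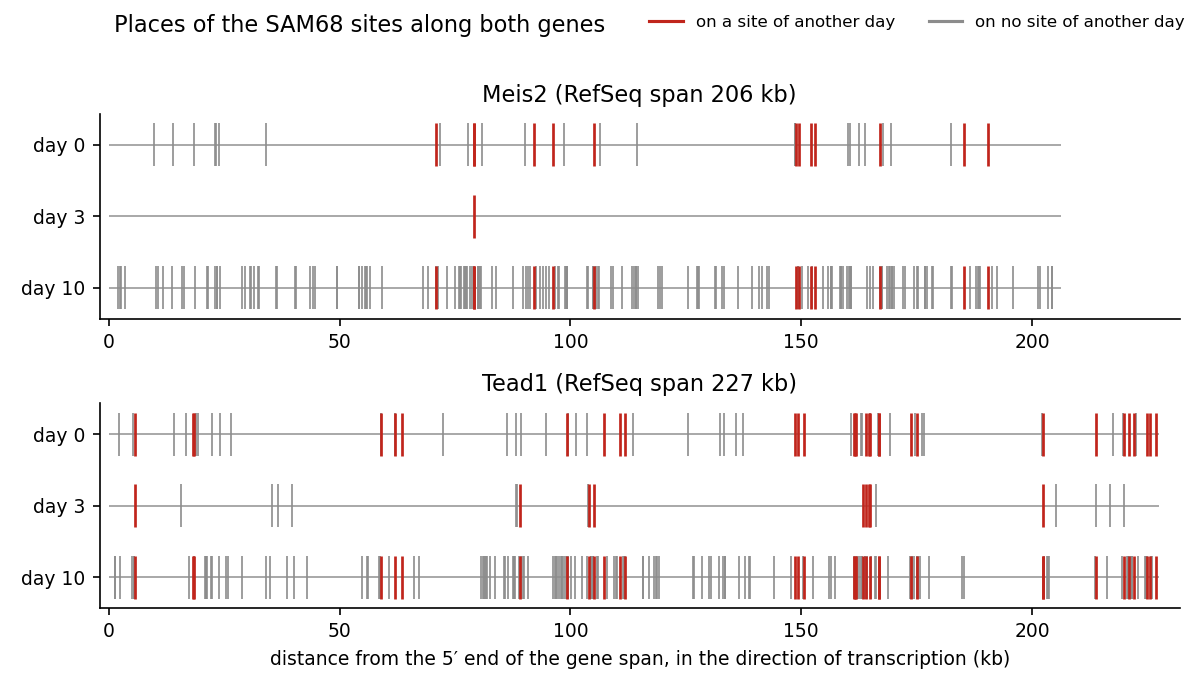
Places of all sites along Meis2 and Tead1 (x axis, kb from the 5′ end of the gene span in the direction of transcription), with a row for each day; red ticks share at least 1 nt with a site of another day and grey ticks do not. Meis2 shows 1 tick on day 3. Its longest stretch without a day 0 site, from 34.2 to 71.0 kb and 17.8% of the span, holds 20 of the 186 day 10 sites.

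The few day 3 sites lay partly on places of the other days. The only Meis2 site of day 3, centred at chr2:115988506 and 79.0 kb from the 5′ end, had exactly the same position on day 0 and on day 10. It was the only place of the 209 in Meis2 that was listed on all days. Of the other places, 12 were listed on days 0 and 10, 23 on day 0 alone and 173 on day 10 alone.

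In Tead1, 4 of 21 day 3 sites (19.0%, 5.45 to 41.9) lay on a day 0 site and 8 (38.1%, 18.1 to 61.6) on a day 10 site, against 18.3% and 25.9% over all genes. The 3 places of Tead1 listed on all days were centred on day 3 at chr7:112685041, chr7:112843489 and chr7:112844345. The last 2 of them lay within the crowded stretch described above. A place at chr7:112844014 was shared by day 0 and day 3 alone. Another 5 places were shared by day 3 and day 10, 12 were listed on day 3 alone, 27 on days 0 and 10, 38 on day 0 alone and 155 on day 10 alone, of 241 in all. No day 3 site of Tead1 lay between 105 and 163 kb from the 5′ end, a stretch of 25.6% of the gene where 18 day 0 sites and 51 day 10 sites lay.

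Of places listed on more than 1 day, those skipping day 3 were the majority in both genes: 12 of 13 in Meis2 and 27 of 36 in Tead1. Over all genes, 4134 of 13541 such places were listed on days 0 and 10 without day 3. Low site numbers on day 3 chose these genes, so a low share of places with day 3 follows from the choice and is given as a description.

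The genes whose split over the 3 days was most like that of a member were found among 639 other named genes with at least 50 sites. Likeness was measured as the Euclidean distance between the scaled site numbers of the 3 days, divided by their sum. For Meis2, with 32.3%, 0.944% and 66.8% of its scaled sites on day 0, day 3 and day 10, the closest was Zeb1, a transcription factor of epithelial-mesenchymal transition, with 17, 0 and 78 sites (distance 0.0371). Gng12, a G protein gamma subunit, followed with 15, 0 and 62 sites, Arfgef1, an exchange factor for ARF GTPases, with 9, 0 and 59, Lama1, a laminin chain of basement membranes, with 9, 1 and 62, and Plagl1, an imprinted zinc finger protein, with 20, 0 and 73 (distance 0.112). All 5 belong to the 41 dip genes, which is a description, since they were picked by the site numbers that also enter the dip. Day 0 sites lay on a day 10 site in 6 of 17 cases in Zeb1, 6 of 15 in Gng12, 6 of 9 in Arfgef1, 4 of 9 in Lama1 and 12 of 20 in Plagl1. Of their day 10 sites, 6.41% lay on a day 0 site in Zeb1, 9.68% in Gng12 and 10.2% in Arfgef1. This share was 6.45% in Lama1 and 16.4% in Plagl1, against 6.99% in Meis2, so a low share was not particular to Meis2.

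For Tead1, split into 41.3%, 13.2% and 45.5%, the closest gene was Ncoa6, a coactivator of nuclear receptors, with 16, 5 and 46 sites (distance 0.0132). Next were Actn1, an actin-crosslinking alpha-actinin, with 13, 4 and 42, Cbfb, the partner subunit of RUNX factors, with 14, 6 and 42, 5031425E22Rik with 19, 9 and 56, and Ctnna1, alpha-catenin of adherens junctions, with 33, 15 and 86 (distance 0.0726). Of these 5, Ncoa6 and Ctnna1 are among the 41, which is a description, since the same site numbers picked them. Day 0 sites on a day 10 site numbered 7 of 16 in Ncoa6, 4 of 13 in Actn1, 4 of 14 in Cbfb, 10 of 19 in 5031425E22Rik and 13 of 33 in Ctnna1. Each member was some way down the other's list: 48 genes were closer to Meis2 than Tead1 was (distance 0.262), and 157 were closer to Tead1 than Meis2 was.

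Meis1 and Pbx3 are relatives of Meis2 in the TALE class. Meis1, a paralogue of Meis2, held 1, 0 and 75 sites, and its day 10 share was 30.0 times that of day 0 (5.23 to 1202). Pbx3, which encodes a DNA-binding partner of MEIS proteins, held 4, 27 and 147 sites. Its share was 7.10 times as large on day 3 as on day 0 (2.47 to 27.9), the opposite direction to Meis2, and 2.07 times as large on day 10 as on day 3 (1.37 to 3.25). The few day 0 sites of these genes, 1 in Meis1 and 4 in Pbx3, all lay on a day 10 site. Set against day 0, the day 10 share of Meis2 itself was 2.07 times as large (1.44 to 3.04).

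Of 35 Hippo and TEAD pathway genes found in the gene table, 24 held a site, and the 23 besides Tead1 held 71, 70 and 289 in order of the days, or 23.9, 24.8 and 38.9 per 10000. From day 0 to day 3, 1 of the 19 genes listed on one of these days lost share (interval below 1) and none gained it (interval above 1), whereas of all genes 4.3% lost and 3.84% gained. From day 3 to day 10, 3 of 23 gained and 2 lost, and of all genes 5.62% gained and 8.58% lost. From day 0 to day 10, 3 of 22 gained and none lost, and of all genes 7.33% gained and 10.5% lost. The median log2 ratios, with a pseudocount of 1, were -0.29 for day 3 over day 0 and 0.61 for day 10 over day 3, against 0.07 and -0.39 over all genes. As the pathway was looked at with the result for Tead1 known, these counts are a description.

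Among its TEAD relatives, Tead2 held 0, 0 and 3 sites and Tead3 1, 0 and 5, too few to place. Of the coactivators, Yap1 held 6, 15 and 39 sites, 2.63 times the day 0 share on day 3 with an interval that includes 1 (0.964 to 8.27) and 2.60 times on day 10 (1.09 to 7.52). Wwtr1, which encodes TAZ, held 4, 2 and 12 sites, and Vgll4, a repressor that competes for TEAD proteins, 4, 0 and 9, with intervals including 1 for each pair of days.

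Of the kinases, Stk3, which encodes MST2, held 8, 6 and 42 sites, 2.66 times its day 3 share on day 10 (1.13 to 7.67). Stk4 held 5, 3 and 3, Lats1 3, 5 and 12, and Taok1, a kinase upstream of MST, 6, 12 and 33, with intervals including 1 for each pair of days. Among the scaffolds, Wwc2 was the other gene of the pathway with the dip, with 13, 0 and 43 sites, and 3 of its 13 day 0 sites lay on a day 10 site. Its paralogue Wwc1 held 6, 14 and 5, 0.136 times its day 3 share on day 10 (0.0383 to 0.399). Nf2, the tumour suppressor merlin, held 6, 2 and 4, Frmd6 2, 0 and 8 and Amotl2, an angiomotin that binds YAP, 3, 1 and 6. The angiomotin gene Amot held 0, 2 and 19 and Ptpn14, a phosphatase that binds YAP, 0, 1 and 24, both with a larger share on day 10 than on day 0.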

How the data were processed

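SAM68 iCLIP2 was made from 15 libraries, 5 per day. The submitters' processing notes list the aligner STAR 2.7.11a, UMI-tools 1.1.6 for molecular identifiers, SAMtools 1.22.1 and the mouse build GRCm38.p5 among other entries. The site caller is not given in the sources used here, nor how libraries were merged. Per the file headers, each site was assigned to a gene and sites of overlapping genes were dropped. The score deposited by the authors is 0 for every site and was not used.

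IDs were named by position from RefSeq spans of GRCm38.p6 (7407 of 7949), where 1 gene of the same class held at least 80% of the sites. A share is a gene's sites divided by the list length. Ratios of shares have exact conditional binomial intervals. A share is called larger or smaller where that interval lies beyond 1. Overlap needed 1 nt on the same strand. Pairing one to one ignores day 10 sites that touch the same day 0 site. The ratio of shares, with counts drawn independently, and the counting of overlaps were tested on simulated data. Other steps were not. Python 3.11.15, NumPy 2.4.6, pandas 2.3.3, SciPy 1.17.1 and matplotlib 3.10.9 were used.

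Members and gene lists were chosen with earlier results of these data known. Genes were named by a rule: for each member the 5 genes of most like pattern, genes of the TALE and Hippo lists with at least 10 sites, and neighbours. A result that falls under this rule, and the counts over the TALE list, are not reported here. Tead2 and Tead3 were named beside it after their values were seen. No genome or exon annotation was used here, so sites were placed by distance along the gene span, and letters were read only where a RefSeq promoter window held a site.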

Additional observations from a re-analysis of the deposited data

How the results depend on the processing

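No paired analysis was possible because each day has 1 list for its 5 libraries, so no library could be left out either. Of 54 alternatives over 27 results, 47 stayed within counting error or within 1.5 times the count and 7 moved. With identical positions required, day 10 sites on day 0 sites were then 2.15% in Meis2 and 5.26% in Tead1, day 0 sites on day 10 sites 11.1% and 14.5%, and day 3 sites of Tead1 on a site of another day 19.0% in place of 42.9%. With at least 50 sites 25 of 658 genes showed the dip, against 41 of 1692 with at least 20 sites. The count was lower, but the share of the genes tested was larger. Scaled by the 3288 genes bound on every day, 1 Hippo and TEAD gene held a smaller share on day 10 than on day 3 in place of 2. The planned count of letters around sites could be made for 1 site of Meis2. Unknown depth limits every absent site, because a place not listed on a day may have been bound below the calling threshold.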
